A study of Homo sapiens with 4 samples.

Results

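The DNA replication machinery was followed through 45 genes, which encode the proteins that mark origins, load and start the replicative helicase, copy the DNA, join the new strands and supply deoxynucleotides. The members were chosen by name from the known parts of the replication fork and of origin licensing, not by a threshold on their values, though with earlier results of these data known. All 45 were found by Entrez gene ID among 19390 gene IDs listed in the series, and all 45 had at least 1 CPM (counts scaled to library size) in each of the 4 libraries. RNA came from cultures of H1, a widely used human embryonic stem cell line labelled wild type, that were differentiated stepwise toward blood. Undifferentiated H1 cells are day 0. The day 2 cells had received activin A at 40 ng/ml and BMP4 at 50 ng/ml for 2 days. The day 3 and day 4 cells had then been moved to VEGF at 40 ng/ml and bFGF at 50 ng/ml, and all media with factors were a custom form of mTeSR1. Each day is 1 library from 1 cell line, so no difference between days has a replicate check and no p-value is given.

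Replication starts at origins that are bound by the origin recognition complex. CDC6 and CDT1 help that complex to load rings of MCM2-7, the core of the helicase, onto DNA in G1 phase, and geminin blocks CDT1 so that each origin is licensed once per cycle. In S phase CDC45 and GINS join MCM2-7 to form the active helicase, DNA polymerase alpha with primase lays down primers, and polymerases delta and epsilon extend them with the help of the PCNA clamp and its loader, replication factor C. Many of these genes are known targets of E2F transcription factors, and human embryonic stem cells are known for a short G1 phase and a large share of cells in S phase.

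The libraries held 5.04 to 5.49 M expected counts, so 1 count was worth 0.182 to 0.196 CPM, and the members had 45 to 2549 counts per library. Intervals in brackets after CPM ratios are exact 95% intervals that cover counting error only. In the files the genes described most below are Entrez genes 4171 (MCM2), 4174 (MCM5), 4176 (MCM7), 51659 (GINS2), 8318 (CDC45), 5557 (PRIM1), 6118 (RPA2), 5111 (PCNA), 5000 (ORC4) and 7298 (TYMS). Bulk RNA cannot tell fewer cells in S phase from less RNA of these genes per cell. Pluripotency markers, of which 7 of 8 were matched, summed to 8432, 2835, 2311 and 1792 CPM at days 0, 2, 3 and 4. The sums of 7 primitive streak markers over the same days were 6.40, 2944, 382 and 78.9 CPM, with GSC and MESP1 at 0 at day 0, and those of 8 endothelial markers were 254, 397, 1042 and 1487 CPM. Sums of 6 lateral and cardiac mesoderm markers were 7.18, 917, 1188 and 1328 CPM, with HAND2 at 0 at day 0. Of 7 blood markers 6 were matched, and they summed to 8.15, 28.4, 62.0 and 139 CPM, with GATA1 at 0 in the first 3 libraries and TAL1 at 0 at day 2. Most of the day 4 sum was TAL1 and RUNX1, with 86.3 and 43.8 CPM. Of the 5 that reached 1 CPM at day 0 or day 4, 4 were higher at day 4. PTPRC went the other way, from 5.43 CPM at day 0 to 0.727 CPM at day 4. Markers outside the blood route were also present, with sums of 190, 223, 86.4 and 35.3 CPM for 3 of 4 neuroectoderm genes, 4.65, 100, 126 and 172 CPM for 4 definitive endoderm genes, and 1.75, 192, 228 and 161 CPM for 4 trophoblast and amnion genes. APOA1 of the endoderm list was at 0 at day 0, and CGA of the trophoblast list was at 0 at day 4. The mixture of cell types therefore changed together with the replication genes, and its part in the differences below was not tested.

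RNA of the replication machinery was most abundant in undifferentiated cells. The 45 members together made up 5554 (5490 to 5619), 4038 (3983 to 4093), 3679 (3627 to 3732) and 4027 (3974 to 4080) CPM at days 0, 2, 3 and 4. Day 0 was thus the highest library and day 3 the lowest. By member, 34 were highest at day 0, 3 at day 2, 1 at day 3 and 7 at day 4. Day 3 was the lowest library for 27 of the 45 members, 60.0%, against 19.0% of the 10451 genes of the series with a mean of at least 10 CPM. The lowest library of the other members was day 0 for 4, day 2 for 5 and day 4 for 9.

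**Figure D1:**
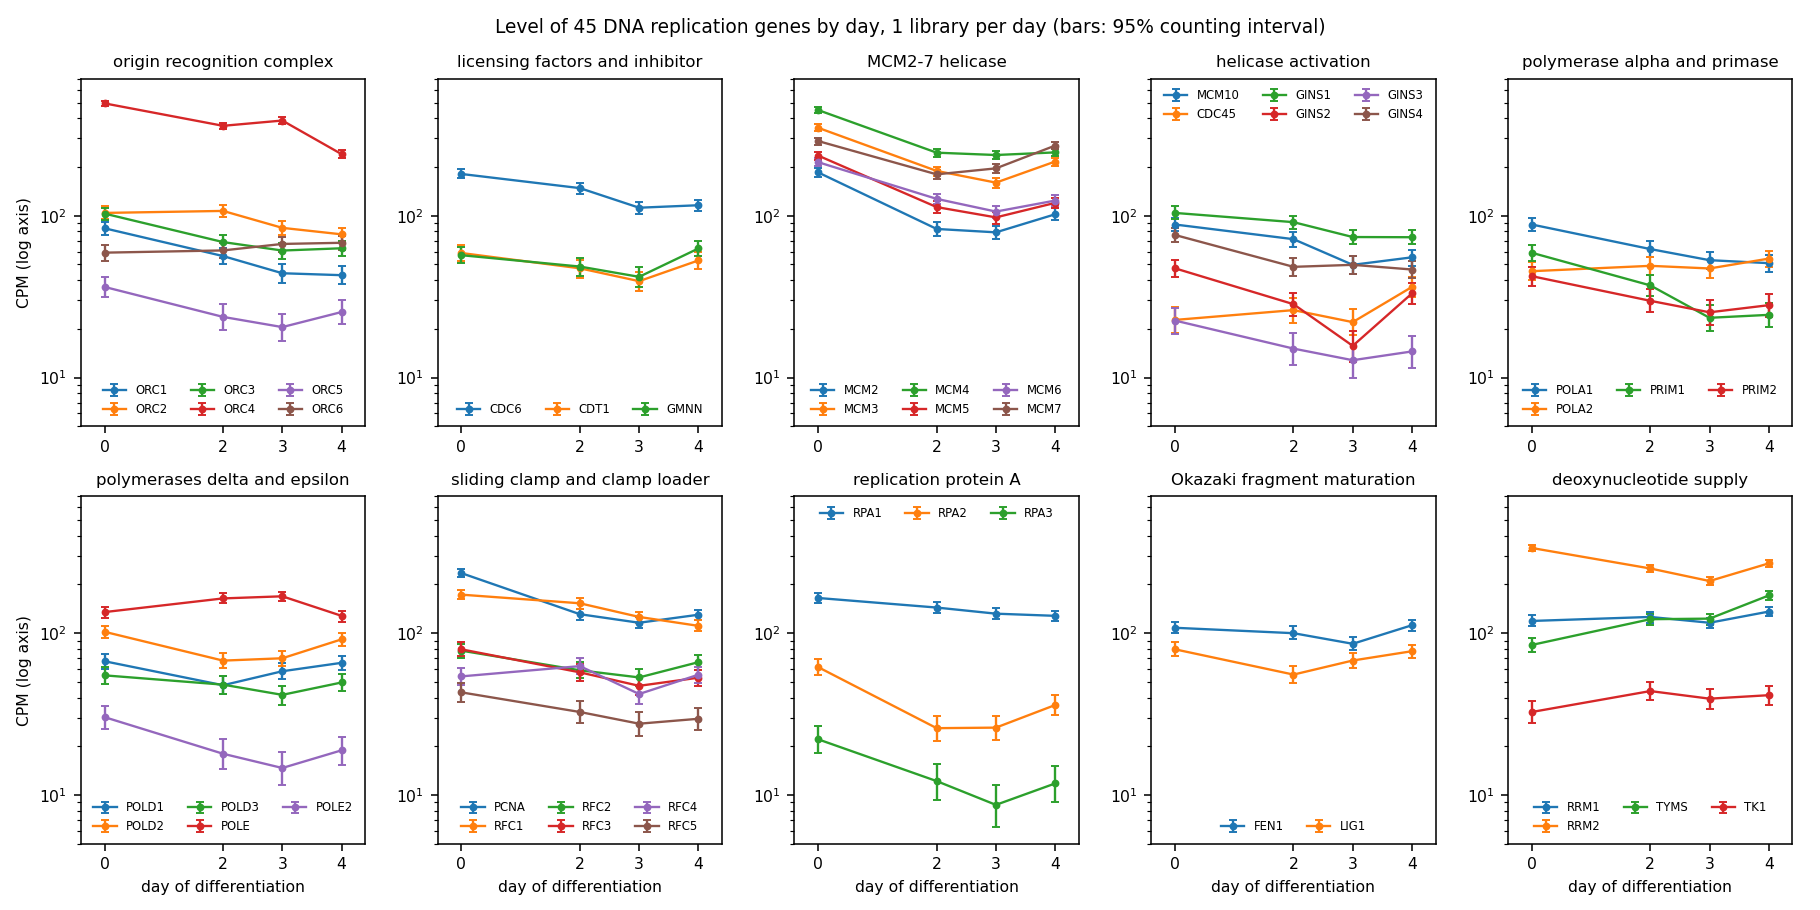
CPM of the 45 replication genes in the 4 libraries, grouped in panels by role, with the day on the horizontal axis and CPM on a log vertical axis; each line is 1 gene and bars are exact 95% Poisson intervals of counting error. All 6 MCM2-7 genes sit highest at day 0, while TYMS in the deoxynucleotide panel is lowest at day 0 (84.6 CPM) and highest at day 4 (171 CPM).

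The first step, day 2 against day 0, compares cells after the activin A and BMP4 step with undifferentiated cells. The median difference of the members was -0.47 on the log2(CPM + 1) scale, against -0.00 over all 15379 genes tested, and 36 members were below 0 and 9 above. A gene was called where this difference was at least 1 (2-fold) or, by a second rule, at least 0.58 (1.5-fold), provided that 1 of the 2 libraries reached 1 CPM. By the 2-fold rule 3 members were lower and 0 higher, against 8.81% lower and 12.9% higher among all genes. The share of members lower by the 2-fold rule, 6.67%, was thus near its background of 8.81%. With 0 members higher, the other side was below its background of 12.9%. By the 1.5-fold rule 14 members, 31.1%, were lower and 0 higher, against 19.1% lower and 22.0% higher among all genes. Just inside that rule stood ORC5 at -0.59, and just outside it ORC3 and POLD2, each at -0.58 after rounding.

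**Figure D2:**
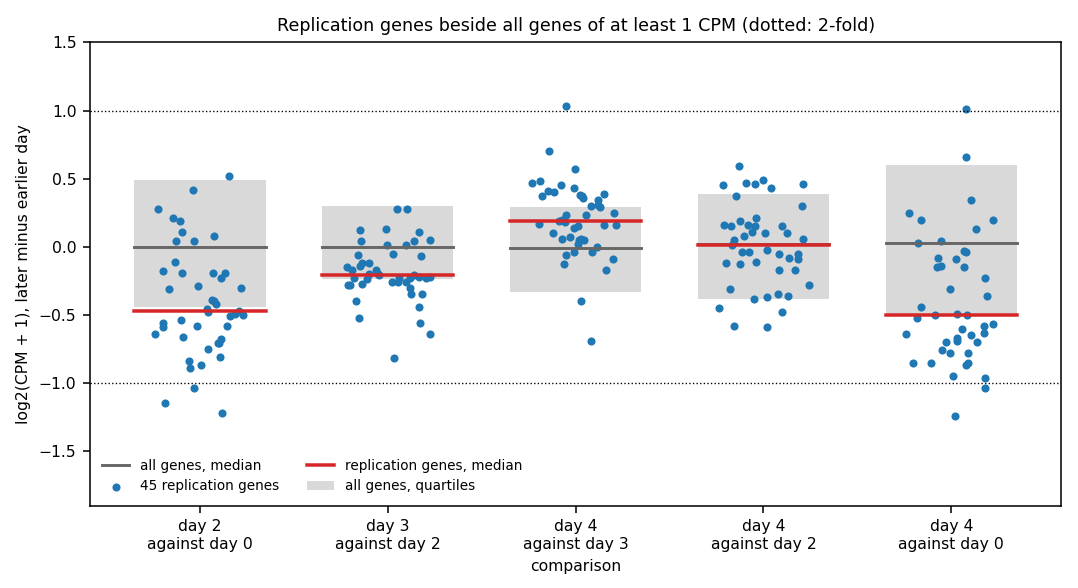
Difference in log2(CPM + 1), later minus earlier day, for the 45 replication genes (points) in each of the 5 comparisons, with their median (red line) beside the median (grey line) and quartiles (grey box) of all genes tested. The members' median sits at -0.47 for day 2 against day 0 and at -0.50 for day 4 against day 0, with the median of all genes at -0.00 and 0.03.

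Origin licensing genes differed among themselves. Of the 6 subunits of the origin recognition complex, ORC5 was called lower at day 2 than at day 0 by the 1.5-fold rule and the other 5 were not. ORC1, the subunit whose level follows the cell cycle in human cells, had 83.6, 56.3, 44.1 and 42.9 CPM at days 0, 2, 3 and 4. Its day 4 level was 1.95-fold lower than its day 0 level (1.66 to 2.29), past the 1.5-fold rule and just short of the 2-fold one. ORC2 had 104, 107, 84.1 and 76.7 CPM, ORC3 had 103, 68.7, 60.9 and 62.9 CPM, and ORC5 had 36.3, 23.7, 20.5 and 25.4 CPM. ORC2 was thus level between days 0 and 2, where ORC3 and ORC5 were at their highest at day 0. ORC4 had 494, 359, 387 and 240 CPM and was lowest at day 4, 2.06-fold below day 0 (1.92 to 2.20). ORC6, the smallest subunit, had 59.1, 61.0, 66.9 and 68.0 CPM and passed neither rule in any comparison. Levels of different genes are compared in FPKM, which divides counts by transcript length and library size. On that scale ORC4 had the highest level of the 6 at days 0, 2 and 3, with 77.8, 54.7 and 59.6 FPKM. At day 4 ORC6 was highest with 41.8 FPKM, next to 37.2 FPKM for ORC4, and ORC5 was lowest in all 4 libraries with 19.1, 11.9, 10.6 and 13.2 FPKM.

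The loading factors CDC6 and CDT1 were highest at day 0 and lowest at day 3. CDC6 had 181, 148, 112 and 116 CPM at days 0, 2, 3 and 4, and its day 4 level was 1.56-fold below that of day 0 (1.41 to 1.73). CDT1 had 58.8, 47.3, 39.4 and 52.9 CPM and passed neither rule. GMNN, which encodes geminin, the inhibitor of CDT1, had 57.0, 48.5, 41.9 and 62.7 CPM. Its highest library was day 4, where its log2(CPM + 1) lay 0.57 above day 3, just short of the 1.5-fold rule. In FPKM, CDC6 led these 3 genes at days 0, 2 and 3, with 36.3 FPKM at day 3 next to 36.2 FPKM for GMNN, and GMNN led at day 4 with 55.8 FPKM.

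All 6 subunits of the MCM2-7 helicase were lower at day 2 than at day 0 by the 1.5-fold rule, and their median difference was -0.88. The 6 genes together had 1721, 937, 875 and 1079 CPM at days 0, 2, 3 and 4. MCM2 had 185, 82.8, 78.9 and 102 CPM, MCM5 had 235, 113, 97.6 and 120 CPM, and MCM3 had 349, 189, 160 and 216 CPM. Each of these 3 was lowest at day 3 and higher again at day 4, still well under day 0. The day 2 level of MCM2 was 2.23-fold below day 0 (1.99 to 2.51), that of MCM5 2.07-fold (1.87 to 2.29) and that of MCM3 1.85-fold (1.71 to 2.00). MCM4 had 449, 245, 237 and 246 CPM and MCM6 had 214, 127, 106 and 124 CPM. MCM4 stayed near its day 2 level at days 3 and 4, 1.83-fold below day 0 at day 2 (1.71 to 1.97) and again 1.83-fold at day 4 (1.71 to 1.96). MCM6 was 1.68-fold below day 0 at day 2 (1.53 to 1.86) and 1.73-fold at day 4 (1.57 to 1.90).

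MCM7 was the one MCM2-7 gene not called lower at day 4 than at day 0. It had 289, 180, 196 and 271 CPM at days 0, 2, 3 and 4, so that day 4 lay close to day 0 and day 2 was the lowest library. Its day 4 level was 1.51-fold above that of day 2 (1.39 to 1.64), the one higher call among the 45 members in that comparison, and 0.940 of that of day 0 (0.875 to 1.01). The difference from day 2, 0.59, lies at the limit of the rule and was 0.57 with median-of-ratios size factors. The other 5 subunits were all lower at day 4 than at day 0 by the 1.5-fold rule. The MCM7 gene hosts a cluster of microRNAs in an intron, which gene counts of this kind do not report on. Per length, MCM2 was the lowest of the 6 in every library, with 53.8, 23.1, 22.3 and 29.1 FPKM. MCM3 was highest at day 0 with 110 FPKM, and MCM7 was highest at days 2, 3 and 4 with 62.4, 68.8 and 95.8 FPKM. The level of the highest subunit was 2.05, 2.71, 3.08 and 3.29 times that of the lowest at days 0, 2, 3 and 4, so the spread of subunit RNA levels was widest at day 4.

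Among the genes that turn MCM2-7 into an active helicase, GINS2 and CDC45 were called higher at day 4 than at day 3. GINS2, a subunit of the GINS complex, had 47.3, 28.4, 15.7 and 33.1 CPM at days 0, 2, 3 and 4, with the lowest library at day 3. It was 1.66-fold lower at day 2 than at day 0 (1.35 to 2.06), 1.82-fold lower at day 3 than at day 2 (1.38 to 2.42) and 2.11-fold higher at day 4 than at day 3 (1.62 to 2.78). The last of these was the one change past the 2-fold rule between days 3 and 4 among the 45 members, and it rests on 182 counts at day 4 and 81 at day 3. Its difference of 1.03 was 0.88 with a pseudocount of 5, under the 2-fold rule. None of the other GINS subunits was called higher at day 4 than at day 3. GINS1 had 104, 91.2, 73.8 and 73.6 CPM, GINS3 had 22.5, 15.1, 12.8 and 14.5 CPM, and GINS4 had 76.0, 48.3, 49.7 and 46.5 CPM. GINS4 was called lower at day 2 than at day 0, 1.58-fold (1.34 to 1.86), and GINS3 and GINS4 were called lower at day 4 than at day 0.

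CDC45, the partner of GINS in the active helicase, had 22.7, 26.1, 22.0 and 36.3 CPM and was highest at day 4. It was 1.65-fold higher at day 4 than at day 3 (1.30 to 2.10) and 1.60-fold higher than at day 0 (1.27 to 2.03). It and TYMS were the 2 members higher at day 4 than at day 0 by the 1.5-fold rule, which CDC45 missed at 0.56 with upper-quartile size factors. MCM10, which takes part in helicase activation, had 88.2, 71.6, 49.7 and 55.3 CPM and was 1.60-fold lower at day 4 than at day 0 (1.38 to 1.85).

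In the primer-making complex, PRIM1 fell at both early steps. PRIM1, the catalytic subunit of primase, had 59.0, 37.1, 23.4 and 24.4 CPM at days 0, 2, 3 and 4. It was 1.59-fold lower at day 2 than at day 0 (1.32 to 1.92) and 1.59-fold lower at day 3 than at day 2 (1.26 to 2.01), and it had the largest decrease of the 45 members at day 4 against day 0, 2.42-fold (1.97 to 2.99). POLA1 and PRIM2 were also lower at both early steps, though neither was called there, while POLA2 was not lower at day 2. POLA1, the catalytic subunit of polymerase alpha, had 88.2, 62.2, 53.1 and 50.9 CPM and was 1.73-fold lower at day 4 than at day 0 (1.49 to 2.02). PRIM2, the large primase subunit, had 42.3, 29.8, 25.3 and 28.0 CPM, and POLA2, the accessory subunit, had 45.4, 49.0, 47.2 and 54.3 CPM. POLA2 was thus lowest at day 0 and passed no rule. PRIM2 passed none either, but stood just outside the 1.5-fold rule at day 4 against day 0. Its difference there was -0.58 after rounding, 1.51-fold lower (1.22 to 1.87). In FPKM, PRIM1 led the 4 genes at days 0 and 2 with 41.4 and 25.0 FPKM, and POLA2 led at days 3 and 4 with 18.7 and 21.6 FPKM.

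The genes of polymerases delta and epsilon had a median difference of -0.48 at day 2 against day 0, close to that of all members, and 1 of the 5 was called lower. Their sums were 389, 346, 353 and 354 CPM at days 0, 2, 3 and 4, in which POLE was the most abundant gene. POLD1, the catalytic subunit of polymerase delta, had 67.1, 47.7, 58.2 and 65.6 CPM, POLD2 had 102, 67.7, 70.0 and 91.6 CPM, and POLD3 had 54.9, 48.1, 41.6 and 49.6 CPM. POLD1 and POLD2 were lowest at day 2 and near their day 0 level at day 4, and none of the 3 passed a rule in any comparison. POLE, the catalytic subunit of polymerase epsilon, had 135, 164, 169 and 128 CPM and was the member whose highest library was day 3. Its day 2 level was 1.21 times that of day 0 (1.10 to 1.35), which passed neither rule. POLE2, the second subunit of polymerase epsilon, went the other way, with 30.3, 18.0, 14.7 and 18.9 CPM and a 1.68-fold lower level at day 2 than at day 0 (1.29 to 2.19).

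PCNA, the sliding clamp, had 235, 131, 116 and 130 CPM at days 0, 2, 3 and 4. Day 0 was the high library and the other 3 lay close together, 1.79-fold below day 0 at day 2 (1.63 to 1.97) and 1.81-fold at day 4 (1.65 to 1.99). The 5 genes of replication factor C, which opens PCNA and places it on DNA, were not called at day 2 against day 0. RFC1, its largest subunit, had 173, 153, 126 and 111 CPM and was 1.55-fold lower at day 4 than at day 0 (1.40 to 1.72). RFC2 had 78.0, 59.0, 53.3 and 66.2 CPM, RFC3 had 79.5, 57.3, 47.3 and 53.1 CPM, and RFC5 had 43.1, 32.6, 27.6 and 29.6 CPM. RFC4 had 54.1, 62.6, 42.1 and 55.4 CPM, so its highest library was day 2 and not day 0. In FPKM the level of PCNA was 9.04, 7.06, 7.16 and 7.31 times that of RFC5, the lowest of the 6 genes, at days 0, 2, 3 and 4.

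Replication protein A coats single-stranded DNA at the fork as a complex of 3 subunits, and its 3 genes differed in response. RPA2 had 61.7, 25.9, 26.1 and 36.0 CPM at days 0, 2, 3 and 4, and its 2.38-fold lower level at day 2 than at day 0 (1.94 to 2.94) was the largest decrease of the 45 members at that step. RPA3, the smallest subunit, had 22.1, 12.2, 8.70 and 11.8 CPM and was 1.82-fold lower at day 2 (1.32 to 2.52). RPA1, the largest subunit, had 165, 144, 132 and 128 CPM, with a day 2 level 1.14-fold below day 0 (1.03 to 1.26), which passed neither rule. The level of RPA1 per length was 2.73, 4.33, 5.57 and 3.98 times that of RPA3 over the 4 days. For RPA3 the day 3 value is the lowest count of any member, 45.

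The 2 genes that finish Okazaki fragments passed neither rule in any comparison. FEN1, the flap endonuclease, had 108, 100, 86.0 and 112 CPM at days 0, 2, 3 and 4. LIG1, which joins the fragments, had 79.5, 55.5, 67.8 and 77.4 CPM. Both were near their day 0 level at day 4, FEN1 at 1.03 times (0.918 to 1.16) and LIG1 at 0.974 times (0.848 to 1.12).

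None of the 4 genes of deoxynucleotide supply was called lower in any comparison, and TYMS was called higher at day 4 than at day 0. TYMS, thymidylate synthase, had 84.6, 122, 123 and 171 CPM at days 0, 2, 3 and 4. Its level at day 2 was 1.44 times that of day 0 (1.27 to 1.63), short of the 1.5-fold rule, and its level at day 4 was 2.02 times that of day 0 (1.81 to 2.27). That last difference, 1.01, lies at the limit of the 2-fold rule and was 0.98 with plain totals. TK1, the thymidine salvage kinase, had 32.6, 43.9, 39.4 and 41.4 CPM, and its day 2 level was 1.35 times that of day 0 (1.10 to 1.66). TYMS and TK1 were both lowest at day 0, and TK1 passed neither rule. RRM1, the large subunit of ribonucleotide reductase, had 119, 126, 116 and 136 CPM, and RRM2, its small subunit, had 336, 251, 210 and 270 CPM. RRM2 was highest at day 0, while RRM1 spanned a narrow range with its highest library at day 4. In FPKM, RRM2 led these 4 genes at day 0 with 104 FPKM, and TYMS led at days 2, 3 and 4 with 75.2, 76.7 and 108 FPKM.

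**Figure D3:**
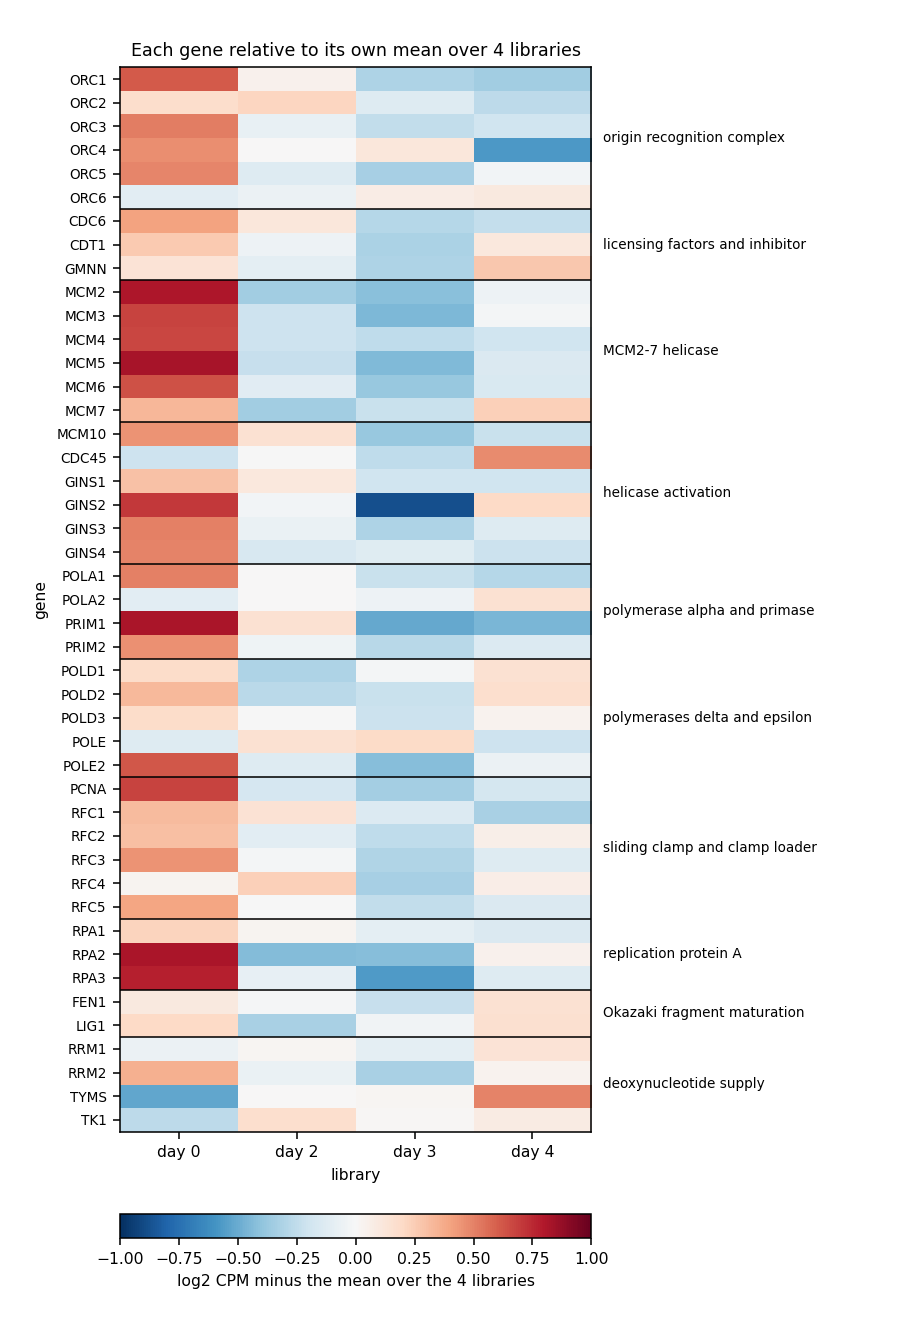
Level of each of the 45 replication genes in the 4 libraries as log2 CPM minus the gene's own mean over the libraries, with genes in rows by role and days in columns. Of the 45 rows, 34 are highest at day 0 and 27 are lowest at day 3, and TYMS, CDC45, POLA2 and ORC6 are among the rows with their highest value at day 4.

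The later steps were smaller. For day 3 against day 2, a comparison that shares the day 2 library with the first step, the members' median difference was -0.21, against 0.00 over 15286 genes. No member passed the 2-fold rule, with 5.82% of all genes higher and 3.51% lower. GINS2 and PRIM1 were lower by the 1.5-fold rule and 0 members were higher, against 9.49% lower and 12.8% higher among all genes. The members' share, 4.44%, was below the background, so the dip at day 3 was made of many small differences. RFC4 came next, 1.49-fold lower (1.25 to 1.77), and MCM10 was 1.44-fold lower (1.23 to 1.70). The largest differences upward were those of POLD1 and LIG1, each 0.28, and neither passed a rule. A drop at this step was not particular to the members, as 22 mitosis genes described below had a median of -0.30.

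Between day 4 and day 3 the members' median difference was 0.19, against -0.01 over 15367 genes. By the 2-fold rule GINS2 was higher and 0 members were lower, with 2.96% of all genes higher and 4.25% lower. By the 1.5-fold rule GINS2 and CDC45 were higher and ORC4 was lower, at 0.620 of its day 3 level (0.578 to 0.665), with 9.51% of all genes higher and 12.8% lower. The counts of members were thus at or below the background in both directions. Between day 4 and day 2, with both libraries used above, the median was 0.01 against 0.02 over 15406 genes. No member passed the 2-fold rule, with 8.18% of all genes higher and 7.60% lower. MCM7 was higher and PRIM1 was lower, 1.52-fold (1.21 to 1.91), by the 1.5-fold rule, both at its limit, with 16.4% of all genes higher and 16.7% lower.

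Over the whole course, day 4 against day 0, the members' median difference was -0.50, against 0.03 over 15652 genes. This comparison shares the day 0 library with the first step and the day 4 library with the last. By the 2-fold rule PRIM1 and ORC4 were lower and TYMS was higher, with 11.9% of all genes lower and 16.1% higher. By the 1.5-fold rule 19 members, 42.2%, were lower and 2 were higher, with 22.1% of all genes lower and 25.6% higher. By role, the 19 were 3 subunits of the origin recognition complex (ORC1, ORC3 and ORC4), CDC6, MCM2 to MCM6, MCM10, GINS3, GINS4, POLA1, PRIM1, POLE2, PCNA, RFC1, RPA2 and RPA3. No gene of Okazaki fragment maturation or of deoxynucleotide supply was among them.

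Transcript length moved with the differences between days. Over all genes of at least 10 CPM, the median difference of day 4 against day 3 ran from 0.43 in genes of up to 1000 bases to -0.35 in genes longer than 6000 bases. For day 2 against day 0 it ran from -0.21 to 0.16 over the same classes, and for day 3 against day 2 from -0.11 to 0.01. The 2 members longer than 6000 bases are ORC4, with 6415 bases, and POLE, with 7859. ORC4 and POLE had differences of -0.69 and -0.40 at day 4 against day 3, and -0.33 and -0.04 after the median of their length class was subtracted. GINS2, with 1196 bases, had 0.73 in place of 1.03 at that step, and CDC45, with 1932 bases, had 0.50 in place of 0.70, under the 1.5-fold rule. At day 4 against day 0 the subtraction left ORC4 at -0.91, under the 2-fold rule, and CDC45 at 0.52, under the 1.5-fold rule. At day 2 against day 0 the same subtraction left the members' median at -0.51, and 27 members were lowest at day 3, 23 of them also so before it, against 21.0% of all genes. The origin of the length trend was not tested.

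**Figure D4:**
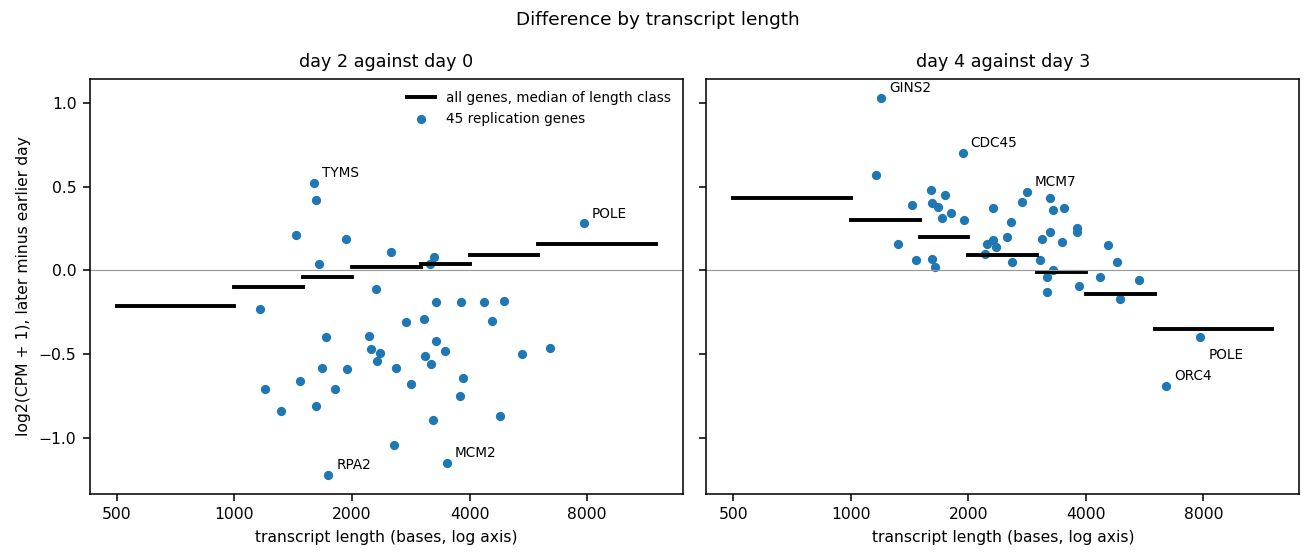
Difference in log2(CPM + 1), later minus earlier day, of the 45 replication genes (points) against transcript length in bases on a log axis, for day 2 against day 0 (left) and day 4 against day 3 (right), with the median of all genes in each length class as a black bar. The first and last bars stand for the open classes up to 1000 and above 6000 bases. At day 4 against day 3 the bars fall with length and the 2 longest members, ORC4 and POLE, lie low. At day 2 against day 0 most members lie under the bars, while POLE, the longest, lies above its bar.

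Windows before the transcription starts are shown for the E2F words they hold. RefSeq windows on GRCh38.p14, from 250 bases before to 50 bases after the start, were given for 39 of the 45 members. GINS4, MCM4, MCM5, POLD3, RPA2 and RPA3 had no entry used here. They were searched on both strands for the E2F words TTTCCCGC, TTTCGCGC, TTTGCCGC and TTTGGCGC, which can overlap each other. At least 1 word was found in 19 of the 39 members, 48.7%, against 3.99% of 27305 genes with an entry and 6.93% of the 8605 of these with a mean of at least 50 counts. The pentamer CCAAT, searched in the same way, was found in 24 members, 61.5%, against 39.7% and 43.9% of those genes. A match is a description of the letters and not evidence of binding. Of the 9 members with a window that were lower at day 2 than at day 0 by the 1.5-fold rule, 7 held an E2F word, 77.8%, against 12 of the other 30, 40.0%. GINS4, MCM4, MCM5, RPA2 and RPA3 were also lower by that rule but had no window. A gene with several windows counted where any of them held a word. The groups are small, and the difference between these shares was not tested.

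The 6 windows of 160 bases that end at the base before the start are printed 5′ to 3′ on the gene's strand, with E2F words in capitals. They were chosen to set 4 genes that were lower at day 2 (MCM6, PCNA, GINS2 and PRIM1) beside 2 that were not (TYMS and POLA2). Of the 2 windows of PCNA, the one that held an E2F word was picked, and the other held none. A word on the opposite strand is printed as its reverse complement, such as GCGGGAAA for TTTCCCGC.
MCM6, chr2:135876444-135876603, minus strand: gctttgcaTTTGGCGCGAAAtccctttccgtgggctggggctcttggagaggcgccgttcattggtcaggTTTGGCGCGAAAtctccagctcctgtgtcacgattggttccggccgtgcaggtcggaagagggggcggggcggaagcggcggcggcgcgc
PCNA, chr20:5126623-5126782, minus strand, 1 of its 2 windows: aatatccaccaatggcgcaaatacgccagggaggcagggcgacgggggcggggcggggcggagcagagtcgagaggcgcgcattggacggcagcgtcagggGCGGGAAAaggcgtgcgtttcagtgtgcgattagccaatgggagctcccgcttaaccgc
GINS2, chr16:85688955-85689114, minus strand: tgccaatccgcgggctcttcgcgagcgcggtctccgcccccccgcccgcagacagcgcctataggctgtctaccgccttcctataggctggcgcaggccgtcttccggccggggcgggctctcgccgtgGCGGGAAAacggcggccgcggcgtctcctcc
PRIM1, chr12:56752324-56752483, minus strand: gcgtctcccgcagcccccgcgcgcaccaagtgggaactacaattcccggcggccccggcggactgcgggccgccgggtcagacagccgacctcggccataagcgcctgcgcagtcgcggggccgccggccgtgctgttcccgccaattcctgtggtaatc
TYMS, chr18:657493-657652, plus strand: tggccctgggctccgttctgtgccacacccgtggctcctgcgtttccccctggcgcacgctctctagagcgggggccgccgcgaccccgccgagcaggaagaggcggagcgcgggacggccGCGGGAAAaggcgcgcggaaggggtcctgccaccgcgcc
POLA2, chr11:65261802-65261961, plus strand: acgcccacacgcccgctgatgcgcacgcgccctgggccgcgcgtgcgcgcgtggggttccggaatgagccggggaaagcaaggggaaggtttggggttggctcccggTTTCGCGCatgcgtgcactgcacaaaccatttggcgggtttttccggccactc
MCM6 held 4 words, in overlapping pairs on opposite strands that begin 152, 148, 90 and 86 bases before the start. PCNA held 1 word at 59 bases before the start, GINS2 1 at 31, TYMS 1 at 39 and POLA2 1 at 53. PRIM1 held none of these words in its window, and TYMS and POLA2 each held one. A part of E2F in these differences was not tested.

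Other genes of the pathway are counted by the 1.5-fold rule, against 19.1% of all genes lower and 22.0% higher at day 2 than at day 0, and 22.1% and 25.6% at day 4. Of 31 other replication factors, 6 were lower (19.4%, near the background) and 0 higher at day 2 than at day 0, with a median of -0.13. CDC7, the kinase that fires origins, had 88.6, 53.4, 51.2 and 44.0 CPM at days 0, 2, 3 and 4. CHAF1A, which places histones on new DNA, had 197, 120, 83.1 and 96.7 CPM, so both were highest at day 0. At day 4 against day 0, 8 of the 31 (25.8%) were lower and 1 was higher, with a median of -0.25. POLD4, the small subunit of polymerase delta, was that last gene, with 10.9 CPM at day 4 and 5.04 CPM at day 0, a ratio of 2.16 (1.34 to 3.57).

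Of 21 E2F family and S phase regulators, 3 (14.3%) were lower and 1 was higher at day 2 than at day 0, with a median of -0.07. TFDP2, a partner of E2F proteins, had 158, 70.2, 71.1 and 64.3 CPM over the 4 days, and CCNE1, the cyclin E1 gene of the step into S phase, had 58.8, 27.7, 21.8 and 26.4 CPM. Both were high at day 0 and about level afterwards. SKP2, a ubiquitin ligase subunit, had 160, 270, 242 and 216 CPM and was the one called higher at day 2. At day 4 against day 0, 6 of these 21 genes (28.6%) were lower and 1 was higher, and E2F7, a repressor of the family, was 2.88-fold lower (2.39 to 3.50).

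Of 21 other genes of nucleotide synthesis, 8 (38.1%) were lower and 2 higher at day 2 than at day 0, with a median of -0.54. MTHFD1, an enzyme of one-carbon folate metabolism, had 350, 148, 117 and 158 CPM over the 4 days, highest at day 0. SAMHD1, which degrades deoxynucleotides, had 64.4, 7.45, 7.92 and 11.1 CPM and was 8.64-fold lower at day 2 than at day 0 (6.16 to 12.4). At day 4 against day 0, 10 of these 21 (47.6%) were lower and 1 was higher. Of 14 genes of fork checkpoint and repair, 5 (35.7%) were lower at day 2 and 9 (64.3%) at day 4 than at day 0, and 0 were higher. UNG, which removes uracil from DNA, had 158, 58.5, 61.7 and 52.2 CPM, and BLM, a helicase of fork repair, had 106, 53.6, 54.3 and 48.7 CPM. Both were highest at day 0.

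Genes of mitosis did not share the members' direction at the first step. Of 22 such genes, 0 were lower and 6 (27.3%) higher at day 2 than at day 0, with 19.1% of all genes lower and 22.0% higher. The share of higher genes was thus near the background. Their median was 0.15, against -0.47 for the 45 replication genes. CENPE had the largest difference of the list at this step, 1.56, with 91.7, 273, 183 and 122 CPM over the 4 days. MKI67, the proliferation marker, had 320, 573, 501 and 374 CPM over the 4 days, and CDK1, the mitotic kinase, had 77.4, 138, 123 and 143 CPM. Both were lowest at day 0, where most replication genes were highest. Other genes of the list were highest at day 0, such as BUB1B with 233 CPM at day 0 and 168 CPM at day 2, and TOP2A with 568 and 536 CPM. At day 4 against day 0, 1 of the 22 (4.55%) was lower and 3 (13.6%) were higher, both below the 22.1% and 25.6% of all genes. The median was 0.20 against -0.50 for the replication genes. With 1 library per day the difference between the lists has no test, and the mitosis list was not centred by transcript length. Of 12 reference genes, 2 were lower and 1 higher at day 2 than at day 0, with a median of -0.21. At day 3 against day 2 and at day 4 against day 3 the reference genes had medians of -0.16 and 0.31, near the members' -0.21 and 0.19 at the same steps. The mitosis genes had medians of -0.30 and 0.11 there, in the same directions as the members.

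Of the 45 members, 33 had whole expected counts in all 4 libraries. The counts of the other 12 were not whole, as happens where reads are divided among gene models: ORC1, ORC4, ORC6, CDC6, CDT1, MCM4, MCM10, GINS1, GINS4, PRIM2, RFC2 and RRM2. Their values are less certain. Without them the members' median at day 2 against day 0 was -0.50.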

How the data were processed

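RNA of 4 libraries of wild type H1 cells (1 per day) was analysed from the deposited gene tables. Per the file headers, each gives by Entrez ID an expected (estimated) count, an FPKM and a transcript length. BWA, Bowtie, RSEM and the hg19 build are named in the submitters' processing notes, and the design text names TopHat and Cufflinks, so the role of each tool is not known. Tool versions and strand handling are not stated in the labels or headers. The deposited expected counts were the main unit, and the FPKM values made by the authors were used to compare levels between genes and as 1 alternative. The deposited lengths set the length classes.

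Names, promoter windows and gene types came from RefSeq tables of GRCh38.p14, in which 19273 of 19390 IDs matched and 117 did not. No hg19 coordinate is printed. Expected counts were rounded, and an ID that a file does not list got 0 there. CPM used TMM factors of edgeR 4.0.16 in R 4.3.3, and the rest was done in Python 3.11.15 (scipy 1.17.1, pandas 2.3.3, numpy 2.4.6, matplotlib 3.10.9). No edgeR test was run. Intervals are exact Poisson for CPM and exact conditional binomial for ratios, at 95%. Genes that reached 1 CPM in 1 of the 2 libraries entered each of the 5 comparisons, with a pseudocount of 1, and the 2-fold and 1.5-fold rules stood in for tests. The 2-fold rule and the ratio intervals were tried on simulated counts with known changes and counting error only. That trial covered neither the 1.5-fold rule nor variation between cultures and libraries.

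All 45 members could be named. Those with the 5 largest differences in each direction, and those outside the common direction, were to get their value in every library. At most 4 genes of each other list were to be named in a comparison, by largest difference. TOP2A of the mitosis list was named outside this rule. The members and lists were chosen with earlier results of these data known. Alternatives were other pseudocounts, size factors, minimum levels and fold rules, FPKM, protein-coding genes alone and subsets of members.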

Additional observations from a re-analysis of the deposited data

How the results depend on the processing

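With 1 library per day, culture and library variation cannot be told apart from the day, and depth limits members of few counts such as RPA3. No paired analysis was possible because each day has 1 library. No median of the members moved beyond its tolerance. The tolerance was 0.22 and 0.21 for days 2 and 4 against day 0, where the medians were -0.47 and -0.50. For day 3 against day 2, day 4 against day 3 and day 4 against day 2 it was 0.24, 0.23 and 0.22. The medians there were -0.21, 0.19 and 0.01, so a move to 0 would have passed too, and the check cannot decide whether they held. They ran from -0.24 to -0.18, 0.11 to 0.23 and -0.04 to 0.06 over the settings. Members lowest at day 3 numbered 27 to 30, counted only in the main setting, with other size factors, FPKM and length centring. Upper-quartile factors shifted the median of all genes at day 2 against day 0 to -0.11. Length centring and leaving out members of counts that are not whole were chosen after seeing the data. Of counts and medians, 260 kept within 1.5 times or the tolerance and 35 moved, and the cause was not tested. Of single members 2224 values held within their counting interval and 26 moved. A reversal was counted only for differences of at least 1, and 0 were found. Smaller differences could change sign, such as that of PCNA at day 4 against day 3, 0.16 and with length centring -0.14.

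By the 1.5-fold rule in place of the 2-fold one, lower members were 14 (day 2 against 0), 2 (day 3 against 2), 1 (day 4 against 3), 1 (day 4 against 2) and 19 (day 4 against 0), and higher members were 2, 1 and 2 (day 4 against 3, 2 and 0). Members 2-fold higher at day 4 than day 0 numbered 0 with a pseudocount of 5, median-of-ratios, plain totals, upper-quartile factors, FPKM, protein-coding genes and length centring, because TYMS lay at the limit. Among all genes 9.97% to 16.2% were higher in those settings. Upper-quartile factors gave 4 members 2-fold lower at day 4 than day 0, against 13.5% of all genes in that setting. They gave 22 members 1.5-fold lower at day 2, against 23.0% of all genes. The 2-fold higher count at day 4 against day 3 was 0 with a pseudocount of 5 and length centring, where GINS2 fell short. The shares of all genes there were 0.826% and 2.53%. By the 1.5-fold rule, higher members at day 4 against day 0 were 1 with a pseudocount of 5, upper-quartile factors and length centring, against 18.6%, 22.7% and 24.1% of all genes. Higher members at day 4 against day 2 were 0 with a pseudocount of 5, median-of-ratios, protein-coding genes and length centring, against 9.83% to 16.3% of all genes. Lower members at day 4 against day 2 were 0 with a pseudocount of 5, plain totals, upper-quartile factors and FPKM, against 10.5% to 16.6% of all genes. They were 2 with median-of-ratios and protein-coding genes, against 17.3% and 16.4%. Lower members at day 3 against day 2 were 1 with a pseudocount of 5, against 4.42% of all genes. Length centring gave 1 higher and 0 lower at day 4 against day 3, against 7.37% and 12.2% of all genes.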
